A study of Sus scrofa with 8 samples.

Results

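The interleukin and chemokine genes of the pig were examined in the histone modification and CTCF profiles of pig embryonic fibroblasts (PEFs), a primary connective tissue culture made here from 35-day fetuses of Large White pigs. They were taken from the RefSeq annotation of the Sscrofa11.1 genome as the protein-coding genes whose symbol is IL, CCL, CXCL, CCR or CXCR followed by a number. The rule found 121 of 20674 protein-coding genes. Of these, 120 lie on chromosomes 1 to 18 or X, which hold 19487 protein-coding genes, and were analysed. They comprise 63 ligands (35 interleukins and 28 chemokines), 51 receptor chains (36 interleukin and 15 chemokine receptor genes) and 6 other members, namely the binding proteins IL18BP and IL22RA2, the enzyme IL4I1, and IL17REL, IL1RAPL1 and IL1RAPL2, which resemble receptors. IL1B2, a copy of the interleukin 1 beta gene, lies on an unplaced scaffold and was not analysed here.

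Interleukins and chemokines are secreted proteins through which cells signal infection, injury and inflammation. Interleukins bind receptor chains that act in pairs or trios and pass the signal to JAK kinases and STAT factors or, in the interleukin 1 and 17 families, to the NF-kappaB pathway. Chemokines bind G protein-coupled receptors and draw migrating cells along a gradient. Fibroblasts are known as producers of several of these signals, IL6, CXCL8, CCL2 and CXCL12 among them, whereas many of the receptors are best known from lymphocytes and myeloid cells. H3K4me3 marks active or poised promoters, H3K27ac marks active promoters and enhancers, and CTCF is a DNA-binding protein that organizes chromatin loops.

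The data were 6 peak lists, 2 replicates each of H3K4me3, H3K27ac and CTCF, all from untreated PEFs with no second condition. They hold no read counts, so the reads behind a peak are unknown and counting intervals could not be given. The study lists total reads for each library, by which CTCF replicate 1 was sequenced far less deeply than the other 5. No source says whether the replicates came from separate fetuses, and the differences between them may be technical. The lists hold 37932 and 43516 peaks for H3K4me3, 74983 and 81164 for H3K27ac and 40289 and 44682 for CTCF in replicates 1 and 2. A gene was said to carry a peak at its start when the edge of a peak lay within 1 kb of the annotated gene start, and a call required both replicates. Fold enrichment is the ratio of ChIP signal over control at the summit of the strongest such peak, and values are given below for replicate 1 and then replicate 2. The culture carried the marks of fibroblasts. H3K4me3 and H3K27ac were at the starts of 13 of 13 fibroblast marker genes, whereas 2 of 14 leukocyte markers (CD14 and CD68) carried H3K4me3 and 4 (CD14, CD68, SPI1 and TYROBP) H3K27ac. The starts of PTPRC, CD3E and CD4 were among the 10 that held neither mark. Of 5 endothelial markers KDR carried H3K4me3 and none H3K27ac, and 5 of 5 epithelial markers carried H3K4me3 and 1, CLDN4, also H3K27ac. As there was a single condition, no test was made, and the counts of members with a mark are set beside the share of all protein-coding genes with it. Over all protein-coding genes that share was 68.9% for H3K4me3 and 60.7% for H3K27ac, which also serves to read the marker lists above.

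H3K4me3 was at the start of 50 of the 120 genes (41.7%), against 68.9% of all protein-coding genes. It was found at 25 of 63 ligands (39.7%) and 22 of 51 receptors (43.1%). The receptors divided by family. Of the 36 interleukin receptor chains 20 carried H3K4me3 (55.6%), whereas of the 15 chemokine receptors 2 did, CCR10 and CXCR4 (13.3%). The ligands did not divide in this way, with 14 of 35 interleukins (40%) and 11 of 28 chemokines (39.3%). H3K27ac was at the start of 47 genes (39.2%; 60.7% of all protein-coding genes), 23 ligands and 21 receptors. CTCF was at the start of 17 (14.2%; 17.9% of all protein-coding genes), 10 ligands and 5 receptors. Without CTCF replicate 1 the receptors numbered 9. Both histone marks were present at 40 genes (33.3%; 58.9% of all), and no peak of any list was found at 57 (47.5%; 26.1% of all), comprising 31 ligands, 24 receptors and 2 others. In single replicates H3K4me3 was at 52 and 53 of the 120 (69.6% of all genes in each), H3K27ac at 48 and 51 (61.3% and 62.7%) and CTCF at 17 and 22 (18.4% and 22.5%). A peak in 1 replicate only occurred at 5 genes for each mark, or 4.17%, against 1.46% of all genes for H3K4me3, 2.57% for H3K27ac and 5.02% for CTCF. The strongest of these were IL12RB2 (H3K4me3 7.25-fold in replicate 2), IL31RA (H3K27ac 5.79-fold in replicate 2) and CXCR4 (CTCF 5.39-fold in replicate 2). At IL12RB2 replicate 1 also had an H3K4me3 peak, just outside the limit at 1.09 kb, against 0.948 kb in replicate 2.

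**Figure D1:**
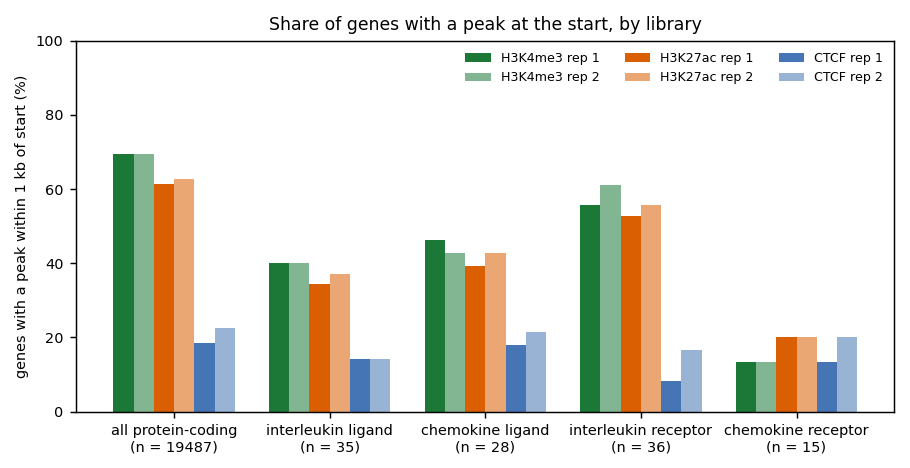
Percentage of genes with a peak within 1 kb of the gene start in each of the 6 libraries, for all protein-coding genes and 4 classes of members; dark bars are replicate 1 and light bars replicate 2. The chemokine receptors have the lowest H3K4me3 share, 13.3% in each replicate, and both replicates of a mark give similar shares in every class apart from CTCF in the receptors.

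Among interleukin ligands, IL6 had the strongest acetylation at its start. IL6, an inflammatory cytokine that fibroblasts are known to secrete, lies at chr9:91506421 on the plus strand. Its H3K4me3 enrichment was 43.7-fold and 33.8-fold, and its H3K27ac enrichment was 44.1-fold and 45.6-fold. The H3K27ac peak extended over 14501 bp in replicate 1 and 11063 bp in replicate 2. A CTCF peak of 16.5-fold and 20.6-fold had its summit 245 and 218 bp downstream of the start. IL11, a cytokine of the same receptor family, had H3K4me3 of 43.6-fold and 26.1-fold and H3K27ac of 28.3-fold and 36.3-fold. Its acetylated peak, 11033 and 11099 bp wide, also covers the starts of TMEM190 and FAM71E2.

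IL1A, IL33 and IL15 carried both marks as well. IL1A, a member of the interleukin 1 family that is released from damaged cells, had H3K4me3 of 39.2-fold and 21-fold and H3K27ac of 25.5-fold and 22.6-fold. The start of IL1B, its inflammatory relative 48.2 kb away, held no peak of any list. IL33, a nuclear alarmin of barrier and stromal cells, had H3K4me3 of 31.9-fold and 32.9-fold. The H3K27ac peak at its start measured 35009 bp in replicate 1 and 12981 bp in replicate 2. In replicate 2 further peaks followed it, and H3K27ac covered 42.3 and 42.2 kb within 50 kb of the start. IL15, which sustains natural killer and memory T cells, showed strong H3K4me3 of 52.7-fold and 24.7-fold with weaker H3K27ac of 9.15-fold and 8.35-fold. IL12A, a subunit shared by IL12 and IL35, had H3K4me3 of 58.2-fold and 21.5-fold, H3K27ac of 12.0-fold and 11.4-fold and CTCF of 17.6-fold and 18.4-fold. IL18, IL16, IL34, IL17B and IL17D also carried both marks.

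IL2, IL4, IL9, IL10, IL17A, IL17F, IL21, IL22 and IL31, interleukins best known as products of T cells, held no peak of any list at their starts. IL5 and IL13, which T cells also make, did carry H3K4me3 within 1 kb. At IL5, an eosinophil growth factor, enrichment was 54.0-fold and 37.3-fold, and the summits lay 230 and 730 bp from the start of RAD50, a DNA repair gene, against 1451 and 951 bp from that of IL5. At IL13 the peak of 41.9-fold and 20.4-fold did not reach the gene start, its summits lay 1289 and 1213 bp upstream, and no other annotated start was nearer to them.

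Among chemokine ligands, CXCL12, CXCL14, CXCL2, CXCL8 and CCL2 carried both marks. The peaks covered the gene's own start, except that the CXCL12 H3K27ac peak of replicate 1 began 0.085 kb past it. Those of CXCL8 also cover the start of LOC106504691. CXCL12, a homeostatic chemokine of stromal cells, had H3K4me3 of 56.1-fold and 24.5-fold but H3K27ac of only 4.91-fold and 7.49-fold. CXCL14, an epithelial and stromal chemokine, was similar with H3K4me3 of 53.5-fold and 21.7-fold and H3K27ac of 9.41-fold and 9.08-fold. CXCL2, a neutrophil attractant, had H3K4me3 of 38.1-fold and 31.5-fold and H3K27ac of 18.8-fold and 19.2-fold. CXCL8, another neutrophil attractant, had H3K4me3 of 17.1-fold and 27.6-fold and H3K27ac of 13.3-fold and 9.11-fold. CCL2, which draws monocytes, had H3K4me3 of 27.1-fold and 16.7-fold and H3K27ac of 29.2-fold and 30.7-fold. The H3K27ac peak of CCL2 thus exceeded that of CXCL12 several times over in each replicate, while H3K4me3 was lower at CCL2. That CCL2 peak covers the gene start but is 10.4 and 12.9 kb wide, and its summits lay more than 1 kb upstream. The CXCL12 summits lay within 1 kb of its start, so these values do not compare acetylation at the starts themselves. With distance taken from the summit, neither CCL2 nor CXCL8 was counted as carrying H3K27ac. The highest mean H3K4me3 enrichment of the 2 replicates among all members, from 67.1-fold and 29.4-fold, was at CCL25, a chemokine of the gut and thymus. Its start lies 191 bp from that of ELAVL1, an RNA-binding protein gene, and the summits lay nearer to ELAVL1 in both replicates.

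**Figure D2:**
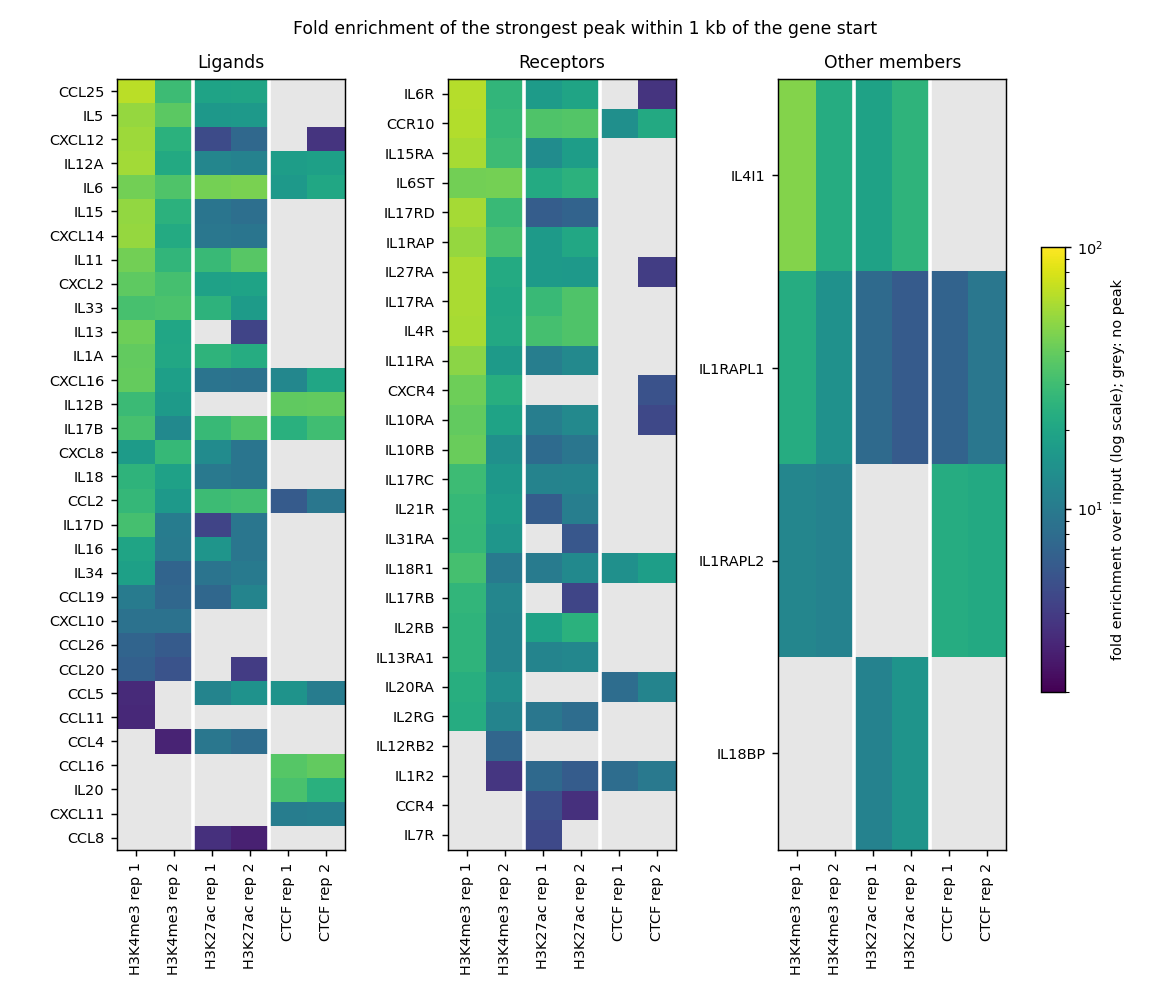
Fold enrichment over input, on a logarithmic colour scale, of the strongest peak within 1 kb of the gene start in each library (columns), for members with a peak in at least 1 library (rows, sorted by H3K4me3; 1 receptor is not shown); grey cells have no peak. IL6 has the highest H3K27ac values, 44.1-fold and 45.6-fold, while CXCR4 and CXCL10 have H3K4me3 and no H3K27ac.

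The promoters of these ligands differ in base composition, and 4 of them are shown 5′ to 3′ from 250 bases before the gene start through the first 50 bases of the gene, read from Sscrofa11.1. IL2 is added as a ligand with no peak at its start. The motifs searched on both strands were kappaB (the NF-kappaB site), AP-1 (TGANTCA), the TATA box (TATAAA) and the GC box (GGGCGG). Capitals mark kappaB, AP-1 and TATA matches in IL6, CXCL8, CXCL2 and IL2 and GC boxes in CXCL12.
IL6 (chr9:91506171-91506470, plus strand): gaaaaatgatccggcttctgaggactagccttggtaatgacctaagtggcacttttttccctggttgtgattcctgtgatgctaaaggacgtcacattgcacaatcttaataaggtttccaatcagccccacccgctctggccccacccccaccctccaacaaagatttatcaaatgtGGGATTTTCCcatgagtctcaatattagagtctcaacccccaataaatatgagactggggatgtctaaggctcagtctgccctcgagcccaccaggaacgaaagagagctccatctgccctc
CXCL8 (chr8:69932396-69932695, plus strand): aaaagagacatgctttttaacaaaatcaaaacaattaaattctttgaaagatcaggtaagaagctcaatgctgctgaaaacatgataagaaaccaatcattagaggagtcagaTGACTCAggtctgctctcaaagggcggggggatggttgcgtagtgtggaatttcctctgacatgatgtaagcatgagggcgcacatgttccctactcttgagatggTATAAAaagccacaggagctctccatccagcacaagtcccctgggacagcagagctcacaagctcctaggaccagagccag
CXCL2 (chr8:70157003-70157302, plus strand): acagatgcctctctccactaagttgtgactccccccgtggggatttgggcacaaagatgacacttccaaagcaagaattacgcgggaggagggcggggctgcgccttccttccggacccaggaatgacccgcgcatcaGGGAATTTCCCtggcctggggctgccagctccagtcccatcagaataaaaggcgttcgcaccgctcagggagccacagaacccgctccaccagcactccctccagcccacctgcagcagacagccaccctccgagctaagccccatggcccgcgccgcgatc
CXCL12 (chr14:91516133-91516432, plus strand): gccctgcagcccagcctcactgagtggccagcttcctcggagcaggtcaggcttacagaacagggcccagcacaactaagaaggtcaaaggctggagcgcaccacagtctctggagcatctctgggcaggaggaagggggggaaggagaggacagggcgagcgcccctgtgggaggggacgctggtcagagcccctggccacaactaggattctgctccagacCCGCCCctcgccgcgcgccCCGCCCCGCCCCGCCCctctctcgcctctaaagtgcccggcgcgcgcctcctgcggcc
IL2 (chr8:101640688-101640987, plus strand): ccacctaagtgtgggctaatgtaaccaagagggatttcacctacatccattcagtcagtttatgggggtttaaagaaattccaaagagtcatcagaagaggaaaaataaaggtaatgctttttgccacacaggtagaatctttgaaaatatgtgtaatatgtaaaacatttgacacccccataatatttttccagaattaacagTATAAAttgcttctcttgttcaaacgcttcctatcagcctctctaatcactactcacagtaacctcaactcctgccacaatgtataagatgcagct

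The kappaB match of IL6 begins 72 bases before the start and that of CXCL2 at 112 bases before it. CXCL8 has an AP-1 match 137 bases and a TATA box 31 bases before the start, and a GC box, not capitalized, 116 bases before it. The TATA box of IL2 lies 46 bases before its start. CXCL12 holds 4 GC boxes between 27 bases before and 2 bases after the start position. Over all protein-coding genes, 7.04% of promoters of this length hold a kappaB match, 6.08% AP-1, 10.8% TATA and 50.7% a GC box. Among the 63 ligands the counts were 11 with kappaB (17.5%), 11 with AP-1 (17.5%), 17 with TATA (27%) and 16 with a GC box (25.4%). Among the 51 receptors they were 4 (7.84%), 5 (9.80%), 9 (17.6%) and 21 (41.2%). A match is a description of the letters in the window, and binding was not measured for any of these factors.

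CpG-rich promoters were the minority. The observed over expected CpG ratio of the promoter reached 0.6 in 25 of 120 (20.8%), compared with 54.2% of all protein-coding genes. Within the CpG-rich promoters 22 of 25 carried H3K4me3 (88%; 94.8% over all genes), and below the threshold 28 of 95 did (29.5%; 38.2% over all genes). The choice of genes did not use this measure, and marked ligands and receptors stood on different sides of it. Of the 25 ligands with H3K4me3, 6 had a ratio of at least 0.6 (24%), namely CCL25, CXCL14, IL11, IL12A, IL17B and IL17D. Of the 22 receptors with H3K4me3, 14 did (63.6%), and of all genes with H3K4me3 74.6%. IL6, CXCL8, CXCL2, CCL2, IL1A and IL33 thus carried H3K4me3 at promoters below the threshold, CXCL2 only just, at 0.594. Some marked receptors were as close, with IL4R (0.602) and IL17RD (0.601) above it and IL31RA (0.591) and IL21R (0.584) below. The median enrichment at H3K4me3-positive ligands was 32.1-fold and 20.4-fold and at receptors 41.5-fold and 18.4-fold, so the order of the classes turned between replicates.

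**Figure D3:**
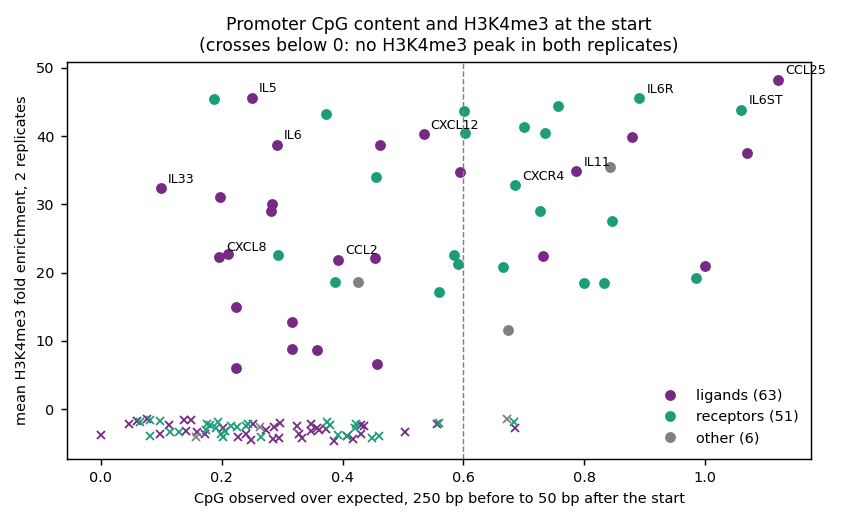
Observed over expected CpG ratio of each promoter (horizontal axis, no unit) against the mean H3K4me3 fold enrichment of the 2 replicates (vertical axis) for 63 ligands, 51 receptors and 6 other members; crosses below 0, spread at random for legibility, lack H3K4me3 in at least 1 replicate, and the dashed line is at 0.6. Most receptors with H3K4me3 lie to the right of the line (14 of 22) and most ligands with H3K4me3 to the left (19 of 25). Marked or not, 15 of 51 receptors and 7 of 63 ligands lie to the right.

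Receptor chains that serve many cytokines were among those with both marks. IL6ST (gp130), the signalling chain shared by the IL6 family, had H3K4me3 of 43.7-fold and 44.1-fold and H3K27ac of 21.7-fold and 24.6-fold, and its H3K4me3 peak measured 8109 and 9712 bp. IL6R, the chain that binds IL6, had 65.0-fold and 26.1-fold H3K4me3 and 17.2-fold and 19.6-fold H3K27ac. IL11RA, the corresponding chain for IL11, had 51.0-fold and 16.9-fold H3K4me3 and 10.6-fold and 12.7-fold H3K27ac. IL4R, shared by the IL4 and IL13 receptors, had 59.8-fold and 21.1-fold H3K4me3 and 31.5-fold and 34.1-fold H3K27ac, and its partner IL13RA1 had 25.3-fold and 11.7-fold and 11.6-fold and 12.3-fold. IL17RA, shared by receptors of the IL17 family, had 60.5-fold and 20.5-fold H3K4me3 and 28.5-fold and 33.8-fold H3K27ac. IL1RAP, the accessory chain of the IL1 and IL33 receptors, had 54.0-fold and 32.4-fold H3K4me3 and 16.8-fold and 21-fold H3K27ac. In each of these receptors H3K4me3 enrichment was higher in replicate 1, apart from IL6ST. IL15RA, IL17RD, IL27RA, IL10RA, IL10RB, IL17RC, IL18R1, IL21R, IL2RB and IL2RG also carried both marks. At IL2RG, the common gamma chain of lymphocyte cytokine receptors, the peak also covers the start of MED12, a subunit of the Mediator complex. At IL2RB the peak did not reach the annotated start and its summits lay 1028 and 1007 bp inside the gene.

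Many receptor starts were empty. Among interleukin receptor chains IL2RA, IL5RA, IL9R, IL12RB1, IL23R, IL18RAP and IL1RL1 (the IL33 receptor) held no peak of any list. IL7R had H3K27ac in replicate 1 only. IL12RB2 had H3K4me3 within 1 kb in replicate 2 only, and at 1.09 kb in replicate 1. Of the chemokine receptors CCR1, CCR2, CCR3, CCR6, CCR7, CCR8, CCR9, CXCR2, CXCR3, CXCR5 and CXCR6 held no peak of any list either. At CCR10, a receptor of CCL27 and CCL28, 2 H3K4me3 peaks lay within 1 kb. The stronger, of 63.5-fold and 27.4-fold, covers the start of PLEKHH3, with summits 598 and 1014 bp from PLEKHH3 and 5046 and 5462 bp from CCR10. The other, of 50.9-fold and 20-fold, covers the start of CNTNAP1, which lies 286 bp from that of CCR10, and ended 33 bp short of the CCR10 start in replicate 1 and reached it in replicate 2. The H3K27ac peaks of 34.1-fold and 35.0-fold also cover the start of PLEKHH3. CXCR4, the receptor of CXCL12, was the only chemokine receptor whose own start lay inside an H3K4me3 peak in both replicates.

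CXCR4 carried H3K4me3 of 42.2-fold and 23.4-fold over 3462 and 3574 bp and had no H3K27ac peak within 50 kb in either replicate. The promoter is shown because the data bear on it, with GC boxes and TATA matches in capitals.
CXCR4 (chr15:15663402-15663701, plus strand): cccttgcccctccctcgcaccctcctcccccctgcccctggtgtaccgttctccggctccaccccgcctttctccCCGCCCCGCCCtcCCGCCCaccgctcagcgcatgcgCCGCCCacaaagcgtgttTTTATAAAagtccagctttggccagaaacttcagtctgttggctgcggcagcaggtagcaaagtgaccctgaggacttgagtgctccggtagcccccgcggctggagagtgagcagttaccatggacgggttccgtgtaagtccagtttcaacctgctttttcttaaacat
It holds 4 GC boxes between 175 and 139 bases before the annotated start and a TATA match 119 bases before it. Its CpG ratio is above 0.6, as are those of IL6R and IL6ST, whereas CCR10, IL1RAP and IL11RA carried H3K4me3 at ratios below 0.6.

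H3K4me3 without H3K27ac in either replicate was found at 6 members (5%; 8.25% of all protein-coding genes), and at 11 when replicate 2 was left out. Apart from CXCR4 these were CXCL10, CCL26, IL12B, IL20RA and IL1RAPL2. CXCL10, an interferon-induced chemokine, had narrow and weak H3K4me3 peaks of 8.68-fold and 8.69-fold, 590 and 935 bp wide. CCL26, an eosinophil attractant, was similar at 7.10-fold and 6.16-fold. IL20RA, a receptor chain for the IL20 subfamily, had 23.1-fold and 13.8-fold, and IL1RAPL2, a neuronal relative of the IL1 receptors, had 12.0-fold and 11.3-fold. The peak assigned to IL12B, a subunit of IL12 and IL23, covers the start of an uncharacterized gene, LOC106508256, and not that of IL12B. The converse, H3K27ac without H3K4me3, was found at 4 members (3.33%; 1.45% of all), with CCL8, CCR4 and IL18BP among them, and at 7 without replicate 2. For neither combination was the share over all genes counted without replicate 2. IL18BP, a secreted inhibitor of IL18, had H3K27ac of 11.3-fold and 15.1-fold. The peaks of the other two were weak, with CCR4 at 5.11-fold and 3.45-fold and CCL8 at 3.44-fold and 2.86-fold.

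In H3K4me3 the replicates differed in scale. Over all genes replicate 1 exceeded replicate 2 by a median factor of 2.01, and over the 50 members by 1.98. Replicate 2 was at least as high as replicate 1 at 4 members (8%; 2.00% of all genes), CXCL8, IL33, IL6ST and CXCL10. At CXCL8 the ratio was 0.619, in the lowest 0.253 percent of genes. The values of both replicates are therefore given throughout.

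Some starts without a peak had one at another annotated start of the same gene. For IL7, a growth factor of lymphocytes, a start at chr4:57685116 lies 7.22 kb from the gene start and carried H3K4me3 of 53.2-fold and 25.7-fold and H3K27ac of 19.5-fold and 19.1-fold. For IL1R1, the signalling receptor of IL1, the start at chr3:52288530 lies 46.2 kb inside the gene and carried H3K4me3 of 50.6-fold and 42.4-fold and H3K27ac of 34.5-fold and 33.4-fold. At IL1R1 the annotated gene start held no peak, and the receptor would be counted as unmarked by that position alone. IL1R2, the decoy receptor of IL1, gained H3K4me3 of 7.20-fold and 3.72-fold at a start 0.826 kb away, and IL20RB gained H3K27ac of 3.76-fold and 3.26-fold at 5.98 kb. Counting any annotated start raised H3K4me3 to 53 members and H3K27ac to 50. The share of all protein-coding genes under that rule was not counted.

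Ligands and their receptors were set side by side in 23 pairings. At the level of H3K4me3, 8 pairings had a peak at the start of a ligand and of a receptor chain, 8 at the ligand side only, 5 at the receptor side only and 2 at neither. For 5 pairings every receptor chain was marked with the ligand. These were IL6 with IL6R and IL6ST, IL11 with IL11RA and IL6ST, IL4 and IL13 with IL4R and IL13RA1 (by way of the IL13 peak that does not reach the start), IL15 with IL15RA, IL2RB and IL2RG, and CXCL12 with CXCR4. For IL15, the H3K4me3 peak of IL2RB does not reach the start and that of IL2RG also covers the start of MED12. The H3K4me3 peak of IL11 also covers the start of TMEM190, 60 bp away. With H3K27ac the counts were 7, 6, 6 and 4. IL6, IL11 and IL15 retained both marks on the ligand and all chains, whereas the pairing of CXCL12 lacked H3K27ac at CXCR4. The pairings marked with H3K4me3 on the ligand side alone were chemokines with their receptors, among them CCL2 with CCR2, CXCL16 with CXCR6 and CXCL8 and CXCL2 with CXCR2, and IL13 with IL13RA2. CCL25 with CCR9 was counted there by peaks whose summits lie nearer to ELAVL1. The H3K4me3 peak of CXCL16 does not reach its start, with summits 1199 and 1216 bp inside the gene, and ZMYND15 starts 87 bp from CXCL16. The receptor side alone had H3K4me3 for IL10 (IL10RA and IL10RB), IL17A and IL17F (IL17RA and IL17RC) and CCL27 (CCR10). The same held for IL2 (IL2RB and IL2RG but not IL2RA) and IL7 (IL2RG but not IL7R). Each of these marked chains also carried H3K27ac, but the strongest peaks assigned to CCR10 cover the start of PLEKHH3 and not its own. The pairings used the gene start alone. With any annotated start counted, IL7 would be marked and the IL1A pairing would have every receptor chain marked. CXCL13 with CXCR5 had H3K4me3 on neither side.

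Genes that act downstream of these receptors and cytokines with other symbols were counted too, beside 68.9% of all protein-coding genes with H3K4me3 and 60.7% with H3K27ac. In a list of 23 genes of NF-kappaB and IL1 receptor signalling 20 carried H3K4me3 and 19 H3K27ac. NFKBIA, the inhibitor of NF-kappaB, had H3K4me3 of 62.6-fold and 28.2-fold, and MYD88, the adaptor of IL1 receptors, 64.3-fold and 34.3-fold. Of 17 JAK-STAT genes 16 carried H3K4me3 and 16 H3K27ac. STAT3, which transmits IL6 signals, had 82.2-fold and 36.3-fold H3K4me3, while JAK3, the kinase of the common gamma chain, had no H3K4me3 and H3K27ac of 5.48-fold and 8.72-fold. Among 21 cytokines and receptors with other symbols 11 carried H3K4me3 and 13 H3K27ac. LIF, a cytokine of the IL6 family, had H3K27ac of 21.3-fold and 29.6-fold with no H3K4me3, whereas TNF and IFNG carried neither histone mark. Of 10 chemokines and chemokine receptors with other symbols 4 carried H3K4me3 and 5 H3K27ac. ACKR3, the scavenging receptor of CXCL12, had H3K4me3 of 41.6-fold and 27.9-fold and H3K27ac of 19.2-fold and 16.3-fold.

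Beyond the starts, the surroundings of the members held about as many peaks as those of other genes. An H3K27ac peak lay within 50 kb in both replicates at 104 of 120 (86.7%; 85.9% of all protein-coding genes), H3K4me3 at 109 (90.8%; 89.6% of all) and CTCF at 105 (87.5%; 87.1% of all). The median number of H3K27ac peaks within 50 kb was 5 and 5 for ligands, 4 and 5 for receptors and 4 and 5 over all genes. It was 2 and 2 for the 15 chemokine receptors. For H3K4me3 the medians were 3 and 3 for ligands, 3 and 2 for receptors and 3 and 3 over all genes, and for CTCF 3 and 4, 3 and 3, and 3 and 3. Neighbouring members share peaks, and the 639 and 716 pairs of a member and an H3K27ac peak rest on 538 and 607 separate peaks. Of these, 421 (78.3%) and 481 (79.2%) lay over 1 kb from every protein-coding gene start. Around ligands the separate distal peaks were mostly intergenic, 120 of 214 and 124 of 244 (56.1% and 50.8%). Around receptors they were mostly intronic, 110 of 189 and 126 of 218 (58.2% and 57.8%). Over the 33327 and 37291 distal peaks within 50 kb of any protein-coding gene, 33.7% and 32.5% were intergenic and 59.1% and 59.8% intronic, so the receptors stood near the share over all genes and the ligands above it in intergenic peaks.

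The ligands with the most H3K27ac peaks within 50 kb were IL1A (18 and 18), CXCL8 (17 and 16), IL34 (16 and 17), IL17B (12 and 17) and CCL11 (15 and 14). Among receptors they were IL6ST (17 and 20), IL27RA (14 and 17), IL4R (17 and 12), IL1R1 (11 and 12) and IL1R2 (11 and 12). IL16 followed with 9 and 17 peaks, the largest disagreement between replicates among ligands. H3K27ac peaks were absent within 50 kb in both replicates at 10 members (8.33%; 12.4% of all genes), namely IL2, IL17A, IL22, IL26, CXCR3, CXCR4, IL12RB2, IL13RA2, IL20RA and IL1RAPL2. IL13RA2, a decoy receptor of IL13, had no peak of any list within 50 kb. H3K4me3 was absent within 50 kb at 6 members (5%; 8.92% of all genes) and CTCF at 6 (5%; 9.93% of all genes).

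**Figure D4:**
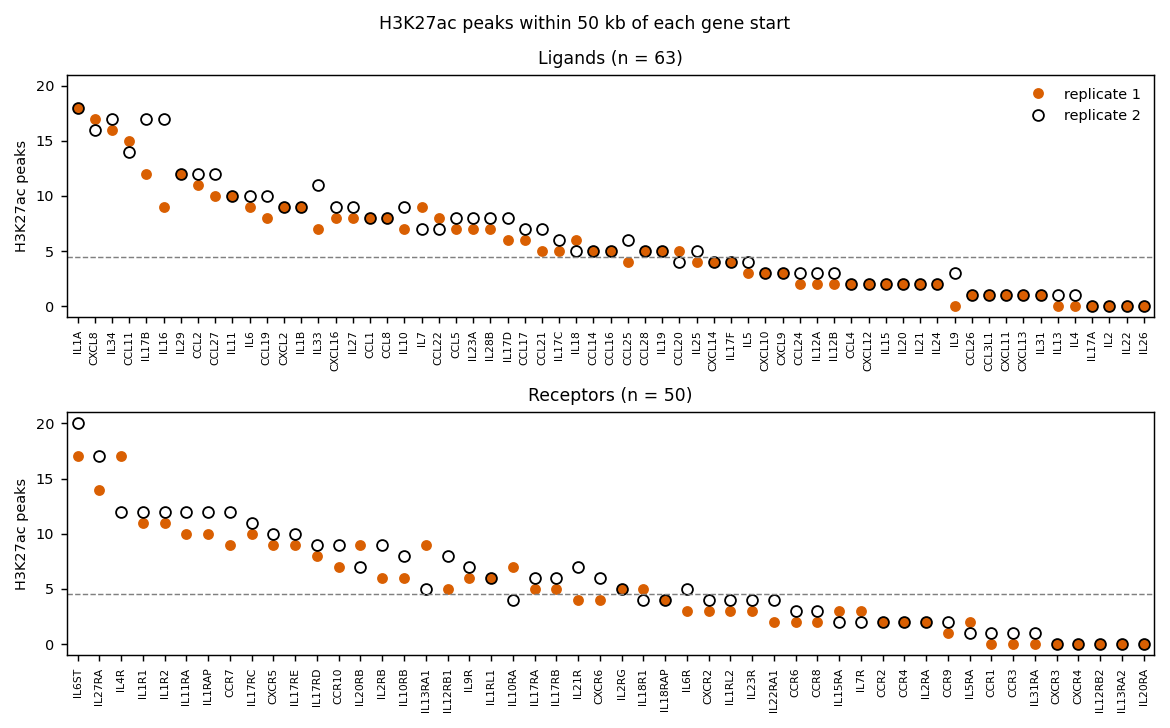
Number of H3K27ac peaks within 50 kb of the start of each of 63 ligands (top) and 50 of the 51 receptors (bottom); filled points are replicate 1 and open points replicate 2, and the dashed line is the median over all protein-coding genes, averaged over replicates (4.50). IL1A leads the ligands with 18 and 18 peaks and IL6ST the receptors with 17 and 20.

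Since a wide domain counts as few peaks, the length covered by H3K27ac within 50 kb on either side was measured too. It had a median of 7.19 and 7.42 kb over all genes, 8.36 and 9.76 kb over ligands and 6.19 and 6.64 kb over receptors. Of the 120 members 20 (16.7%) were in the highest 10% of all genes, 13 ligands and 7 receptors. IL17B had the greatest length, 57.6 and 59.0 kb. Its start lies in an acetylated peak of 24.7 and 24.2 kb that also covers the microRNA genes MIR143 and MIR145, which are known from smooth muscle and fibroblasts, and the summits of that peak lay 21949 and 22012 bp from the IL17B start. CXCL8 had 53.5 and 47.3 kb, IL4R 47.9 and 51.4 kb, CCL2 46.2 and 50 kb, IL33 42.3 and 42.2 kb, IL1A 43.6 and 38.5 kb and IL6 41.1 and 39.1 kb. IL33 and IL6 ranked far higher by length than by number of peaks, which were 7 and 11 for IL33 and 9 and 10 for IL6. The strongest distal H3K27ac peak near CXCL8 was intergenic, 14.8 kb upstream of the start at chr8:69912550-69922585, with 36.3-fold and 25.6-fold enrichment. Both values exceeded those at the CXCL8 start itself. CXCL2, 225 kb away on the same chromosome, had 33.8 and 32.6 kb.

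**Figure D5:**
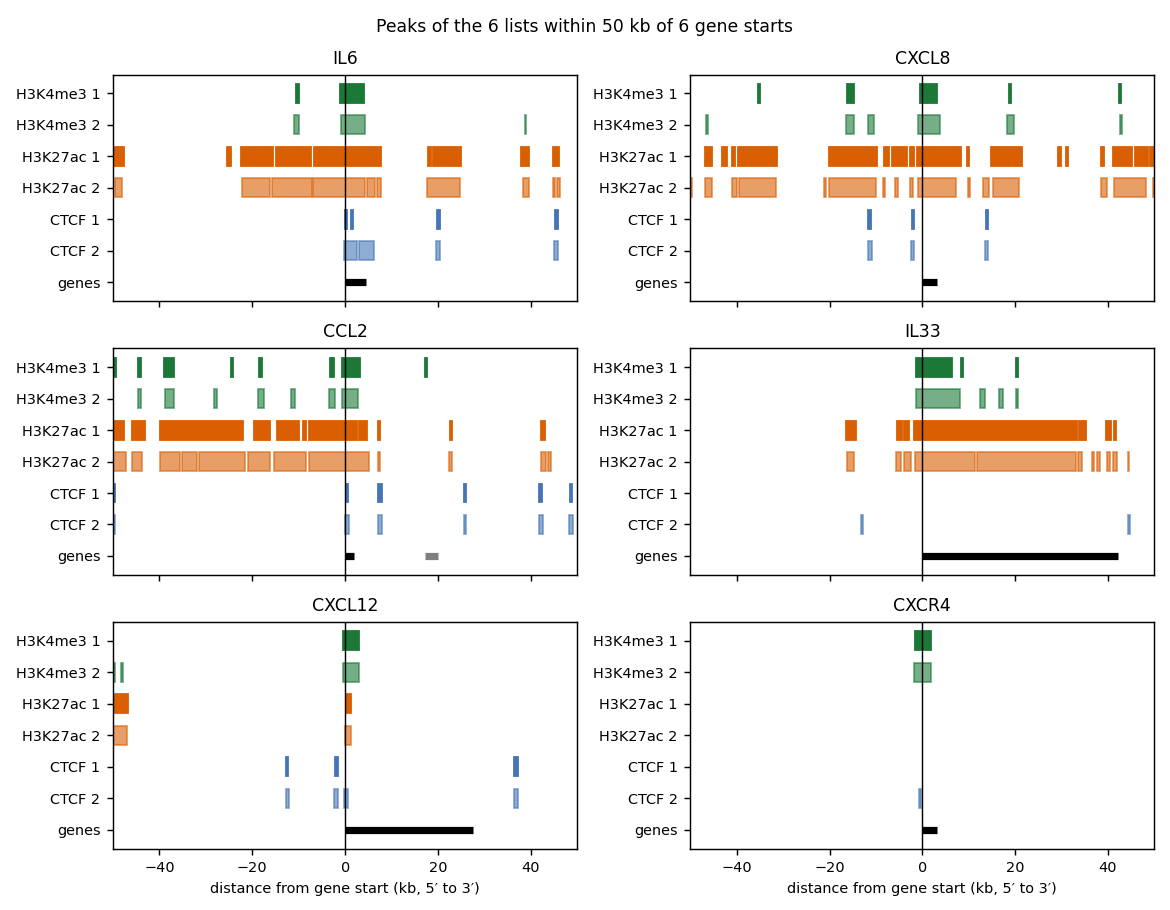
Peaks of the 6 libraries within 50 kb of 6 gene starts, with distance from the start in kb along the direction of transcription; coloured blocks are peaks (the shortest are drawn slightly widened), black bars the named gene and grey bars other protein-coding genes. H3K27ac covers 41.1 and 39.1 kb around IL6 and 53.5 and 47.3 kb around CXCL8, while CXCR4 has H3K4me3 and no H3K27ac peak.

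Most of the 57 members with no peak at the start had H3K27ac in their surroundings. In both replicates 47 of them (82.5%) had an H3K27ac peak within 50 kb, compared with 61.3% of the 5089 protein-coding genes without a peak at the start, and 15 (26.3%) had one within 5 kb, compared with 14.7%. The median distance to the nearest H3K27ac peak was 17.4 and 15.6 kb for the members and 28.9 and 27.4 kb for all such genes. The 15 include IL7, IL1R1 and IL20RB, which carried H3K27ac at another annotated start. Neighbouring members can share a peak, so the 57 are not independent. CCR7, the lymph node homing receptor, had no peak at its start, yet a distal peak 8.12 kb downstream inside the gene had H3K27ac of 29.9-fold and 31.8-fold. IL23A, a subunit of IL23, had an H3K27ac peak of 32.8-fold and 35.0-fold 4.19 kb upstream in an intron of PAN2.

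Of the 120 members 65 stood in 23 chains of starts at most 500 kb apart, and neighbours were often unlike. The chemokine receptors CCR9, CXCR6, CCR1, CCR3 and CCR2, which lie together on chromosome 13, held neither histone mark at their starts. The IL1 receptor cluster of chromosome 3, with 6 genes in 612 kb, contained 44 and 47 H3K27ac peaks, and of its gene starts IL18R1 held H3K4me3 while IL18R1 and IL1R2 held H3K27ac. In the CCL cluster of chromosome 12 with CCL1, CCL8, CCL11 and CCL2, spanning 72.0 kb, CCL2 alone held H3K4me3, although the region held 17 and 17 H3K27ac peaks. The second CCL cluster of chromosome 12, with CCL4, CCL3L1, CCL14, CCL16 and CCL5 in 172 kb, had no H3K4me3 in both replicates and H3K27ac at CCL4 (9.41-fold and 8.13-fold) and CCL5 (11.7-fold and 14.8-fold). CCL3L1 and CCL4 belong to families of near-identical copies, whose reads may be lost when only uniquely mapped reads are kept. On chromosome 10, CCL19 and IL11RA carried both marks and CCL21 and CCL27 neither. The IL10, IL19, IL20 and IL24 cluster of chromosome 9 had neither histone mark at any of its 4 starts.

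CTCF stood at 17 starts in both replicates, and 11 of these also carried H3K4me3 (9.17% of members; 16.2% of all protein-coding genes). At 4 members, with IL20, CCL16 and CXCL11 among them, no H3K4me3 was present in either replicate (3.33%; 1.46% of all). CCL5 and IL1R2 had CTCF and H3K27ac with H3K4me3 in 1 replicate only. The strongest were IL12B (38.7-fold and 39.0-fold), CCL16 (35.6-fold and 38.8-fold), IL20 (32.5-fold and 23.9-fold) and IL17B (23.8-fold and 30.3-fold). The IL12B peak ended 0.582 and 0.617 kb short of the IL12B start. Its summits lay more than 1 kb upstream, inside the H3K4me3 peak that covers the start of LOC106508256. With distance taken from the summit, or within 500 bp, IL12B was not counted as carrying CTCF. The peaks of CCL16 and IL20 did not reach the gene starts either. Weaker peaks stood at IL1RAPL2, IL12A, IL6, IL18R1, CCL5, CCR10, CXCL16, CXCL11, IL20RA, IL1R2, IL1RAPL1 and CCL2, the last at 6.13-fold and 9.47-fold. At IL1RAPL2, a start with H3K4me3, CTCF was 22.4-fold and 21.4-fold with a summit 113 and 99 bp before the start. The 12-base core of the CTCF motif, searched on both strands within 50 bp of the replicate 2 summit, was found at 8 of the 17 sites. Over all CTCF peaks it was found at 35.7% and 34.8%, and at 1.29% and 1.31% of windows placed 1 kb away. Of the 8 sites, 7 are printed with 14 bases on either side, in the direction of the core, which is in capitals.
IL17B (chr2:150583407-150583446, minus strand): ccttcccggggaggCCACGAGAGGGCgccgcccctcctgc
IL20 (chr9:67498011-67498050, plus strand): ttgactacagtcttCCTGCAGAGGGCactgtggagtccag
CCL16 (chr12:39617485-39617524, minus strand): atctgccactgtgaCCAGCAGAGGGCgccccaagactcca
IL12B (chr16:64142219-64142258, minus strand): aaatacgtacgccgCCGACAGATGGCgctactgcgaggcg
IL18R1 (chr3:51844710-51844749, plus strand): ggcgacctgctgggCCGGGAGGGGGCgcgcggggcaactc
CXCL16 (chr12:52143946-52143985, plus strand): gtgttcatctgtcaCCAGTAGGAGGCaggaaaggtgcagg
CCR10 (chr12:20159119-20159158, plus strand): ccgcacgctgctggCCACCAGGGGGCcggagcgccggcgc
The CCR10 site belongs to the replicate 2 summit, 1515 bp downstream of the start. It lies outside the replicate 1 peak, whose summit was at 411 bp. The 3 CTCF sites with the highest enrichment, at IL12B, CCL16 and IL20, all hold the core. The site at IL6 does not, and its peak was 535 bp wide in replicate 1 and 2599 bp in replicate 2. The absence of these letters says nothing about whether CTCF bound there.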

How the data were processed

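ChIP-seq of H3K4me3 and H3K27ac (Abcam antibodies) and CTCF (Abclonal) in PEFs was deposited as narrowPeak lists, 1 for each replicate. The 2 input libraries were not analysed here. The authors aligned reads to Sscrofa11.1 with Bowtie2, kept uniquely mapped pairs with a mapping quality above 5, removed duplicates with Picard and called peaks with MACS2 against input, at a stated q-value of 0.01. The deposited q-values reach 0.0432 to 0.0499, so all listed peaks were used. Each deposited row gives a fold enrichment (a linear ratio over control at the summit), −log10 p-value, −log10 q-value and a score, which was not used. The study's summary of total reads was read for depth only, and its values are not used here.

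Peaks were assigned to RefSeq gene starts by edge distance, at most 1 kb or 50 kb, on chromosomes 1 to 18 and X, with pandas 2.3.3 in Python 3.11.15. Assignment was tested on simulated data. Sequences were read from the same build with pysam 0.24.0. Values were compared as counts, medians and replicate values, without tests. Members and lists were chosen with earlier results of these data known. Named were the 10 members of each class with the highest H3K4me3, those with 1 histone mark only, those with CTCF, listed ligand and receptor pairings, the 5 of each class with the most H3K27ac peaks, and the largest chains. Other genes in the text were chosen after their values were seen, and covered length was added at that point. The values of 1 receptor and 1 leukocyte marker, which remain in the counts, are not reported here.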

Additional observations from a re-analysis of the deposited data

How the results depend on the processing

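No paired analysis was possible because no result comes from a test. Of 106 values under alternative settings, 76 stayed within 1.5 times the reported count or within the spread between replicates and 30 moved. Apart from each mark in single replicates, the share of all protein-coding genes was not counted under these settings. The H3K4me3 counts of ligands and of receptors at starts stayed within 1.5 times under every setting tried. With distance taken from the summit, however, H3K4me3 fell from 50 to 34 members. The 16 lost included IL6, CXCL8, IL1A, CXCR4, IL6ST and IL4R. With distance taken from the summit 14 ligands held H3K27ac, and within 5 kb 35 did. CTCF within 5 kb was found at 20 ligands and 12 receptors. For receptors CTCF fell to 3 within 500 bp and to 3 where the replicate peaks had to overlap by 50% of both, and leaving out a replicate gave 5 to 9, the 9 without replicate 1. Members with H3K4me3 and no H3K27ac numbered 10, and those with the reverse 7, when the missing mark was required to be absent from only 1 replicate, and 8 members showed the reverse within 5 kb. Leaving out a replicate gave 7 to 11 and 5 to 7, the higher counts without replicate 2. Median numbers of peaks followed the distance. Within 25 kb they were 2 for H3K4me3, 2.50 for H3K27ac and 1.5 for CTCF around ligands, and 1, 2 and 1.5 around receptors. Within 100 kb they were 6, 10.5 and 6.5, and 5, 8.50 and 5. At a −log10 q-value of at least 5 the medians were 2.50 for H3K4me3 and 4 for H3K27ac around ligands and 3.5 for H3K27ac around receptors. Without peaks at the starts of other protein-coding genes they were 2 and 3.5 around ligands and 3.5 for H3K27ac around receptors. The cause of these shifts beyond the change of distance or threshold was not tested. Without read counts, a missing peak may mean low depth as well as no mark.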
